A study of Mus musculus with 64 samples.

Results

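The hearts of mice with muscle-specific loss of Bmal1 were compared between trained and sedentary animals. The comparison takes the 5 libraries from exercise-trained knockout mice and the 5 from sedentary knockout mice by their labels, 10 of the 64 libraries in the series and 10 of its 20 heart libraries. Trained mice ran daily on a treadmill for 6 weeks, and hearts were collected 48 hours after their final run, so the values describe the trained heart at rest and not the response to a single run. All 20 hearts, knockout and vehicle alike, have the labelled genotype Cre+:iMSBmal1 fl/fl. The 2 knockout groups have the treatments iMSBmal1KO with No Exercise and iMSBmal1KO with Exercise Training, and the other 2 groups have Vehicle with the same 2 exercise conditions. The agent for which vehicle stands in and the loss of Bmal1 can therefore not be told apart, while the training comparison within knockout mice has both on each side. The promoter that drives Cre, the age, the sex and the time of day of collection are not given in the sources used here. No source used here says whether the 5 libraries of a group came from separate animals. The p-values then measure the spread between libraries within groups, taken over all 20 hearts.

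Bmal1, listed under its other symbol Arntl, pairs with Clock to switch on genes that carry an E-box, among them their own repressors of the Period and Cryptochrome families, and this loop keeps daily time in nearly every tissue. Rev-erb receptors such as Nr1d1, and output factors such as Dbp, follow the same activators and pass the rhythm on to metabolism. The heart has its own clock. The series names skeletal muscle as the site of the Bmal1 loss, and whether heart muscle was spared was not tested, since Arntl was too low in these hearts. Regular endurance exercise is known to alter the energy metabolism, contractile apparatus, vessels and stress defences of heart muscle.

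Libraries held an estimated 16.53 to 20.96 M reads (megareads) in the knockout hearts and 14.13 to 19.48 M in the vehicle hearts. Levels below are the deposited signal divided by 1 factor for the whole heart table, which brings the mean library to a sum of 1000000, and are given in parts per this total (ppm). They are not corrected for transcript length, so levels are compared between libraries and not between genes. The 8 heart muscle markers summed to 45898 to 51349 ppm in sedentary and 45498 to 50315 in trained knockout hearts, and Myh6, the main myosin of the mouse heart, reached 17737 or more in each of the 10 libraries. Arntl itself was low in all of them, at 0.797, 0.882, 0.636, 0.77 and 1.2 ppm in sedentary and 1.11, 0.878, 0.854, 0.592 and 1.05 in trained knockout hearts, and it lay under the minimum mean level of 1 ppm set for testing. Vehicle hearts were low in Arntl as well, at 0.347 to 1.4 ppm when sedentary and 0.405 to 1.33 when trained. The low level is therefore not particular to the knockout hearts. Trained knockout replicate 5 stood apart from the other hearts: it alone carried the lung airway transcript Scgb1a1, at 24.1 ppm against 0 in the other 19 hearts. Its brown fat markers that are low in heart summed to 96 ppm against 14.6 to 36.5 in the other knockout hearts, although sedentary vehicle replicate 3 reached 91.2, and its B lymphocyte markers summed to 99.5 against 4.91 to 25.5 in the other 19 hearts. Several results below are given with and without this library.

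Training was accompanied by higher levels of 3 genes in knockout hearts: the circadian repressor Ciart, the NADPH oxidase subunit Cyba and Rps27rt, a near copy of a ribosomal protein gene. Ciart, named for circadian-associated repressor of transcription, inhibits the Clock and Bmal1 pair. In sedentary knockout hearts Ciart stood at 7.92, 6.8, 6.69, 7.43 and 6.6 ppm, and in trained ones at 12.4, 9.99, 10.4, 9.83 and 11.8. Each trained library lay above each sedentary one. The mean went from 7.09 ± 0.568 to 10.9 ± 1.14 (SD, n = 5 each). On the log2 scale this was a rise by 0.55 (SE 0.09), with a limma adjusted p of 0.0223. A fold change here is that of log2(level + 1), which understates the change of low genes, and a gene is called, and said to rise or fall, at an adjusted p under 0.05.

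Ciart lies on chromosome 3 from 95878503 to 95882251 on the minus strand (GENCODE vM21, build GRCm38). The E-box, the letters CACGTG, was searched in the 250 bases before each gene's start in RefSeq (build GRCm38.p6). The motif reads the same on both strands. These windows are shown because Ciart is the clock gene that was called and its window is rich in the motif, with Per1 and Cry1 as clock genes with 1 E-box each and training effects of opposite sign. Each runs 5′ to 3′ on the gene's strand, with the E-boxes in capitals: Ciart chr3:95882229-95882478 (minus strand), Per1 chr11:69098699-69098948 (plus strand) and Cry1 chr10:85185055-85185304 (minus strand).
Ciart: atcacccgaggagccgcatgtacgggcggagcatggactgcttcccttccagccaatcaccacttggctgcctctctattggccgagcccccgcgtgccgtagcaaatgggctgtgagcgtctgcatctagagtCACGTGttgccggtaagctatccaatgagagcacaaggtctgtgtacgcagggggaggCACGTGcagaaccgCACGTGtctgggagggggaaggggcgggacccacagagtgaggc
Per1: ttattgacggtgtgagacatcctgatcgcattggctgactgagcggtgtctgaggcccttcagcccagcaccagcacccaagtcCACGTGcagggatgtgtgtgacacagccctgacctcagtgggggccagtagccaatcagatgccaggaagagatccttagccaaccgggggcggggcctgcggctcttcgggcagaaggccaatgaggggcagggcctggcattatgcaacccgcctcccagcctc
Cry1: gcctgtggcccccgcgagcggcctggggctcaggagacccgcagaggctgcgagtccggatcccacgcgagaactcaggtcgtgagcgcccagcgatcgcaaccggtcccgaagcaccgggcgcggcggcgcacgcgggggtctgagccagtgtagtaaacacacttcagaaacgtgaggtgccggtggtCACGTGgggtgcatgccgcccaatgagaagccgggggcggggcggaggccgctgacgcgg
The Ciart window held 3 E-boxes, whose first bases lay 116, 58 and 44 bases before the start. The motif was in 6.02% of all 32851 windows, and 3 or more copies were in 0.0609% of them (20 windows). Among the 12776 windows of tested genes those shares were 8.21% and 0.102%. Of the 16 clock genes with a window, 5 held an E-box in one: Ciart, Bhlhe41, Cry1, Per1 and Tef. The E-box of Per1 began 166 bases and that of Cry1 60 bases before the start, and the other Per1 window held none. Dbp and Nr1d1 held no match in theirs. A match describes these letters and is not evidence of binding.

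Cyba encodes p22phox, the membrane subunit that stabilises the NADPH oxidases, enzymes that make superoxide in phagocytes and, as Nox4 complexes, in heart muscle and vessel cells. It lies on chromosome 8 from 122424776 to 122432930 on the minus strand. Its levels were 16.3, 15.5, 15.9, 15.7 and 14.4 ppm in sedentary and 18.5, 21.8, 18.5, 22 and 22.5 in trained knockout hearts, with no overlap. The log2 fold change was 0.38 (SE 0.07, limma adjusted p 0.0288).

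Rps27rt, on chromosome 9 from 114982366 to 114982739 on the minus strand, is an intronless relative of Rps27, a protein of the small ribosomal subunit. Its levels were 101, 105, 106, 123 and 96.9 ppm in sedentary and 144, 133, 132, 137 and 157 in trained knockout hearts, again with no overlap, and the log2 fold change was 0.40 (SE 0.07, limma adjusted p 0.0223). Its identity is uncertain. The 374 bases of the Rps27rt transcript share an unbroken run of 341 identical bases with a 345-base coding transcript of Rps27. Rps27 itself was listed at 0.129 to 0.914 ppm in the 10 knockout hearts, whereas the 78 ribosomal protein genes that were tested averaged 1.36 to 423 ppm there, with a median of 41.9. The reads of the pair cannot be assigned to either gene here.

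**Figure D1:**
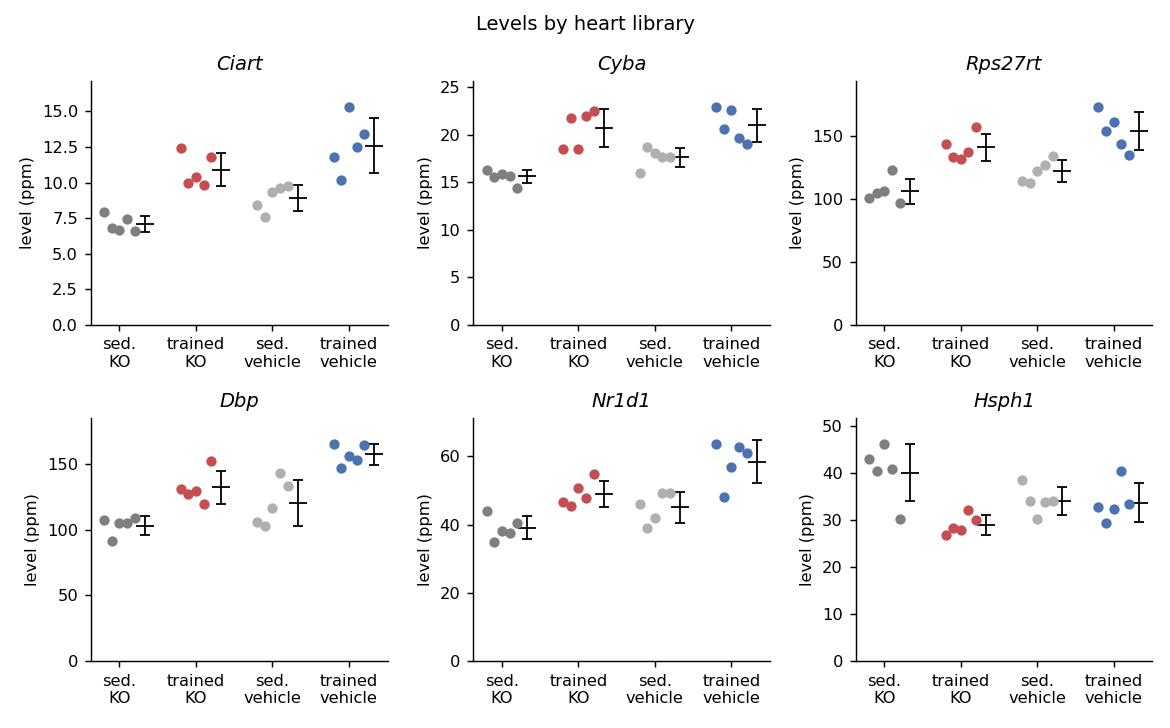
Levels (ppm, linear axis from 0) of 6 genes in each of the 20 hearts, in the order of the replicate numbers, with the mean and SD of the 5 libraries beside them (sed., sedentary; KO, knockout). For Ciart, Cyba, Rps27rt, Dbp and Nr1d1 each trained knockout library lies above each sedentary knockout library, and for Hsph1 sedentary knockout replicate 5, at 30.2, lies among the trained libraries.

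These 3 were the calls among 13455 tested genes, or 0.0223%, all of them higher. In the simulated data limma recovered 78 of 100 genes changed 1.5-fold and 98 of 100 changed 2-fold in this comparison, with 8 false calls. Those data were given 100 changes of each size, whereas 3 genes were called in the hearts. How many changes of these sizes were missed in the hearts was not tested. At a looser threshold, 1589 genes (11.8%) had an unadjusted p under 0.05. Of these, 809 (6.01% of the genes tested) were higher and 780 (5.8%) lower in trained hearts. In 139 genes (1.03%) the 5 trained libraries all lay above the 5 sedentary ones, and in 156 (1.16%) all lay below. At an adjusted p under 0.1, a threshold added after seeing the data, 21 genes were higher and 15 lower.
Whether the 3 genes passed the threshold depended on single libraries. Without trained knockout replicate 5 limma called 0 genes, with 630 higher and 567 lower at an unadjusted p under 0.05. The log2 fold changes were then 0.53 for Ciart, 0.35 for Cyba and 0.36 for Rps27rt, with limma adjusted p values of 0.122, 0.129 and 0.122. The count was also 0 without trained knockout replicate 4 or without sedentary knockout replicate 2 or 3 and 1 without sedentary replicate 1 (Ciart), sedentary replicate 5 (Hsph1) or trained replicate 1 (Cyba). Without sedentary knockout replicate 4 the count was 92, with 73 higher and 19 lower, and Ciart, Cyba and Rps27rt were among them. When each of the 10 libraries was left out in turn, Ciart was called in 4 of the fits and the other pair in 3 each. Over these fits the log2 fold change was 0.51 to 0.59 for Ciart, 0.35 to 0.42 for Cyba and 0.36 to 0.46 for Rps27rt.

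All 3 genes rose in vehicle hearts as well. Ciart was 8.39, 7.56, 9.34, 9.58 and 9.73 ppm in sedentary and 11.8, 10.2, 15.3, 12.5 and 13.4 in trained vehicle hearts, a log2 fold change of 0.45 (SE 0.09, limma adjusted p 0.00662). The corresponding values were 0.24 (SE 0.07, adjusted p 0.0315) for Cyba and 0.33 (SE 0.07, adjusted p 0.00686) for Rps27rt. The knockout effect minus the vehicle effect was 0.10 (SE 0.13) for Ciart, 0.15 (SE 0.10) for Cyba and 0.075 (SE 0.10) for Rps27rt, with limma adjusted p values of 0.868, 0.703 and 0.864. In vehicle hearts 635 genes (4.72%) were called higher and 478 (3.55%) lower. Of the 13455 genes tested, 487 had all trained libraries above the sedentary ones in vehicle hearts and 377 had all below. In knockout hearts these were 139 (1.03%) and 156 (1.16%). For 25 of the 13455 genes the trained libraries lay above the sedentary ones in both genotypes. For 23 they lay below in both, and for 0 they lay on opposite sides. The 25 include Ciart, Cyba, Rps27rt, Dbp and 4 members of the ribosomal protein list. Of the 78 tested members of that list, 7 lay above in knockout hearts and 24 in vehicle hearts.

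Of the 18 clock genes tested, Ciart alone was called in knockout hearts. Among the others, Dbp and Nr1d1 had the smallest p values. Dbp, an output factor of the PAR bZIP family, stood at 107, 91.4, 105, 105 and 109 ppm in sedentary and 131, 127, 129, 119 and 152 in trained knockout hearts. The groups did not overlap, and the log2 fold change of 0.34 (SE 0.08) missed the threshold with a limma adjusted p of 0.0735. It passed in the vehicle hearts (0.39, SE 0.08, adjusted p 0.0047). Nr1d1, or Rev-erb alpha, which represses Bmal1 transcription, stood at 44, 35.1, 38.3, 37.7 and 40.6 in sedentary and 46.8, 45.4, 50.7, 47.8 and 55 in trained knockout hearts, also without overlap. Its log2 fold change was 0.32 (SE 0.08, limma adjusted p 0.105) against 0.37 (SE 0.08, adjusted p 0.00752) in vehicle hearts. The difference between genotypes was -0.047 (SE 0.11) for Dbp and -0.044 (SE 0.11) for Nr1d1.

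The activators had negative training effects. Clock was 28.1 to 32.5 ppm in sedentary and 22 to 30.5 in trained knockout hearts (log2 -0.20, SE 0.07, limma adjusted p 0.269), and its relative Npas2 was low, at 0.862 to 1.71 over the 10 libraries (-0.12, SE 0.15). In the repressor families the signs differed between members. Per1, the Period gene that also answers to glucocorticoids and other acute signals, was 45.6, 55.3, 33, 54.4 and 59 in sedentary and 65.1, 64.2, 71.1, 56.5 and 60 in trained knockout hearts. Its groups overlapped, with a log2 fold change of 0.38 (SE 0.13, limma adjusted p 0.229). Cry1 was 13.3 to 15.4 in sedentary and 10.7 to 13.4 in trained hearts (-0.21, SE 0.07, adjusted p 0.218). Per3 (0.018, SE 0.07) and Cry2 (0.046, SE 0.06) lay near 0.

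Per2, the Period gene most tied to clock phase, was called lower by training in vehicle hearts, where its log2 fold change was -0.41 (SE 0.08, limma adjusted p 0.00323). In knockout hearts Per2 was 32.9, 32.9, 33.1, 34.1 and 34.3 ppm when sedentary and 27, 35.8, 26.7, 32 and 32 when trained. Trained replicates 1 and 3 were low and replicate 2 was the highest of the 10. The log2 fold change was -0.13 (SE 0.08, adjusted p 0.514), and the difference between genotypes, 0.29 (SE 0.11), did not pass (unadjusted p 0.0133, adjusted p 0.587). The nuclear receptors Nr1d2 (0.057, SE 0.05) and Rora (-0.057, SE 0.07) and the output factors Tef (-0.025, SE 0.04), Hlf (0.022, SE 0.06) and Bhlhe41 (0.061, SE 0.06) had small fold changes in knockout hearts. Nfil3, the repressor that opposes Dbp, was at -0.18 (SE 0.11), and Bhlhe40, a repressor of Clock and Bmal1 activity, at 0.15 (SE 0.10).

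**Figure D2:**
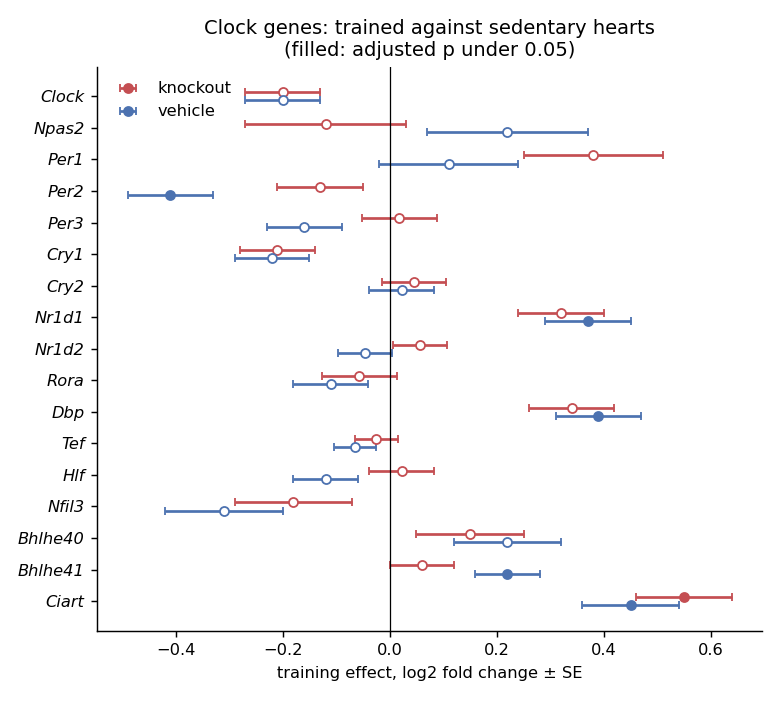
Training effect (log2 fold change of trained against sedentary, with its SE) for the clock genes named in the text, in knockout and vehicle hearts, with filled points for an adjusted p under 0.05. Ciart is the filled point of the knockout hearts, and Per2 is filled in vehicle hearts, at -0.41, against -0.13 in knockout hearts.

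Genes of innate immunity and antigen presentation had mostly positive fold changes in trained knockout hearts, and Cyba was the one called. Over all genes, 6613 of 13455 had a positive fold change and 6.01% were higher at an unadjusted p under 0.05. In bulk tissue, more cells of a type and more RNA per cell cannot be told apart. Of the 7 MHC class II genes, which present antigen to helper T cells, 7 had a positive fold change, 5 had an unadjusted p under 0.05 and 0 were called, with a median log2 fold change of 0.407 against -0.002 over all genes tested. H2-Aa was 31.2, 26.5, 27.5, 31.2 and 19.4 ppm in sedentary and 42.4, 35.6, 33.8, 39.7 and 33.1 in trained knockout hearts. The groups did not overlap (log2 0.44, SE 0.13, limma adjusted p 0.184). H2-Ab1 (0.47, SE 0.13, adjusted p 0.169) and H2-DMb1, which loads peptides (0.41, SE 0.13, adjusted p 0.201), overlapped in 1 or more libraries. Sedentary replicate 5 was the lowest of the 10 hearts in H2-Aa and H2-Ab1. In vehicle hearts the median was 0.162 and 0 were called. The list mean per library, as the log2 difference from the sedentary knockout mean, was 0.53, 0.28, 0.21, 0.45 and 0.30 in trained knockout hearts, and sedentary vehicle hearts already stood at 0.18 to 0.78.

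Of the 16 complement genes tested, 15 had a positive fold change and 9 an unadjusted p under 0.05, against 6.01% of all genes higher at that p. The median was 0.225 (-0.044 in vehicle hearts). C4b, which carries the classical pathway forward, was 22.3, 20.7, 18.5, 18.6 and 20 ppm in sedentary and 26.6, 23.4, 28.2, 26 and 29.8 in trained knockout hearts. The trained libraries lay above the sedentary ones (log2 0.40, SE 0.09, limma adjusted p 0.0882), whereas in vehicle hearts the log2 fold change was -0.077 (SE 0.09), with 17.8 to 26.4 ppm in sedentary and 18.7 to 24.3 in trained libraries. The difference of 0.48 (SE 0.13) had an unadjusted p of 0.00121 and an adjusted p of 0.524. Cfb, of the alternative pathway, was low, at 0.623 to 2.43 ppm in sedentary and 2.05 to 3.79 in trained knockout hearts (0.75, SE 0.20, adjusted p 0.161), and C1qb, part of the recognition molecule C1q, was at 0.26 (SE 0.06, adjusted p 0.109). The list mean per library was 0.41, 0.11, 0.01, 0.37 and 0.50 in the trained libraries, so replicates 2 and 3 lay within the sedentary range of -0.10 to 0.14. Adipocyte markers, which share the adipsin gene Cfd with the list, moved with it. Of 8 tested, 7 were positive, with a median of 0.542 (0.221 without trained replicate 5, and -0.092 in vehicle hearts). Their list mean was 0.75, 0.30, -0.80, 0.63 and 1.72 in the trained knockout libraries and -0.77 to 0.63 in the sedentary ones, and their sums overlapped (678 to 721 ppm in sedentary, 612 to 959 in trained knockout hearts). With the brown fat covariate the complement median was 0.175.

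Interferon-stimulated genes, which answer to viral and other danger signals, gave 21 positive fold changes among 21 tested. Of these, 5 had an unadjusted p under 0.05, against 6.01% of all genes higher at that p. The median was 0.175 (0.058 in vehicle hearts). The list mean per library was -0.23 to 0.11 in sedentary and 0.16 to 0.26 in trained knockout hearts. Sedentary vehicle hearts already stood at 0.04 to 0.25. Ifi27l2a had a fold change of 0.82 (SE 0.21, limma adjusted p 0.154). It stood at 5.64, 3.9, 7.23, 4.62 and 4.62 ppm in sedentary and 8.62, 8.73, 8.06, 8.88 and 16.2 in trained knockout hearts. Replicate 5 stood well above the other trained libraries, and without it the log2 fold change was 0.65. With the brown fat covariate it was 0.52, and Ifi27l2a was also highest within their groups in the vehicle hearts with the highest brown fat sums, at 10.6 in sedentary replicate 3 and 12.1 in trained replicate 1. Whether fat content set these values was not tested. Ifitm3, a membrane protein that restricts virus entry, was 33.6 to 38.4 in sedentary and 41.4 to 44.1 in trained hearts (0.24, SE 0.06, adjusted p 0.154). The immunoproteasome genes Psmb8 (0.35, SE 0.10, adjusted p 0.184) and Psmb9 (0.49, SE 0.15, adjusted p 0.197), which trim peptides for presentation, did not overlap between groups. Psmb9 averaged 4.48 ppm in sedentary and 6.68 in trained knockout hearts, and 6.35 in sedentary vehicle hearts.

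Of the 6 NADPH oxidase genes tested, Cyba was called, and Rac2, the small GTPase of the phagocyte oxidase, was 1.51 to 2.13 ppm in sedentary and 2.18 to 3.63 in trained knockout hearts (0.46, SE 0.12, limma adjusted p 0.161). Rac1, its widely expressed relative, had a fold change of -0.075 (SE 0.04). Other leukocyte genes were among the 10 highest fold changes that did not overlap. The adaptor Tyrobp was 2.71 to 3.34 in sedentary and 4.37 to 5.17 in trained knockout hearts (0.46, SE 0.10, adjusted p 0.0735). The lipid-presenting molecule Cd1d1 was 1.95 to 3.12 and 3.32 to 6 (0.68, SE 0.16, adjusted p 0.0895). The lysosomal exonuclease Pld4 (0.55, SE 0.13, adjusted p 0.0815) and Limd2 (0.50, SE 0.10, adjusted p 0.0619) also lay apart. In vehicle hearts Tyrobp was 3.27 to 5.46 ppm in sedentary and 3.56 to 4.66 in trained libraries, so sedentary knockout hearts were the low group, with a mean of 3.12 against 4.5 in sedentary vehicle hearts. The vehicle log2 fold change was -0.10 (SE 0.10), and the difference of 0.56 (SE 0.14) had an unadjusted p of 0.000607 and an adjusted p of 0.524.

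Macrophage markers moved with these groups. Their 13 genes summed to 277, 290, 288, 266 and 257 ppm in sedentary and 321, 321, 312, 345 and 301 in trained knockout hearts, with no overlap, while sedentary (277 to 308) and trained (278 to 331) vehicle hearts overlapped. Of the 13, 5 had an unadjusted p under 0.05 and a positive fold change (6.01% of all genes), and 0 were called. Lyz2, the lysozyme of myeloid cells and the most abundant of them, was 89.3, 91.4, 99.6, 95.2 and 80.5 in sedentary and 112, 119, 111, 127 and 105 in trained knockout hearts (log2 0.33, SE 0.07, limma adjusted p 0.0582). The others of the 5 were the growth factor receptor Csf1r and the complement genes C1qa, C1qb and C1qc, which are the 3 genes shared with the complement list. The general marker Adgre1 (0.04) and the resident macrophage gene Cd163 (-0.06) lay near 0. With the marker sum as a covariate, added after seeing the data, the medians were 0.241 for MHC class II, 0.104 for complement and 0.038 for interferon-stimulated genes, with 0, 3 and 1 members at an unadjusted p under 0.05, and the log2 fold changes of Ciart (0.45), Cyba (0.36) and Rps27rt (0.44) had limma adjusted p values of 0.126, 0.106 and 0.0822. Since the sums of trained and sedentary knockout hearts do not overlap, the part of macrophage content in these lists cannot be told apart from training.
Without trained knockout replicate 5 the medians were 0.436, 0.216 and 0.172, with 5, 9 and 5 members at an unadjusted p under 0.05. T and NK lymphocyte markers had sums of 1.43 to 2.2 ppm in sedentary and 1.76 to 3.43 in trained knockout hearts, and neutrophil markers summed to 3.02 or less.

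**Figure D3:**
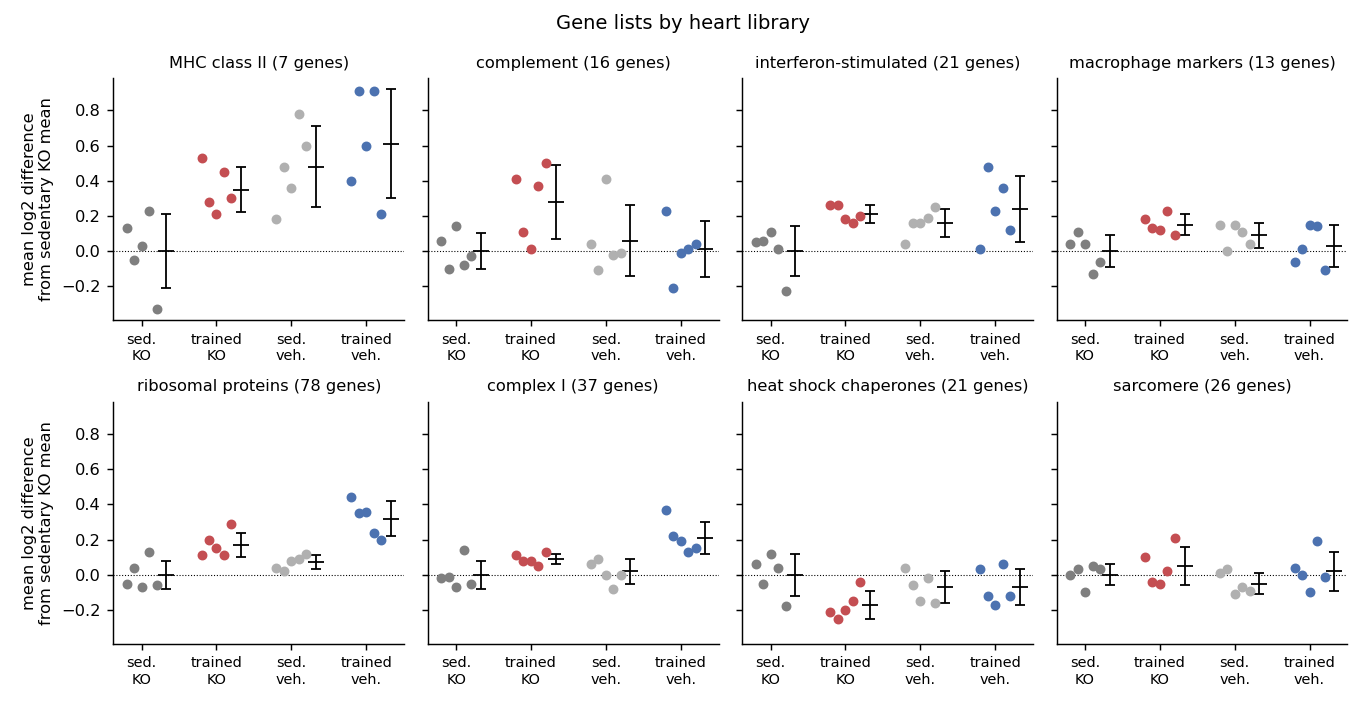
Mean log2 difference of each gene list from its sedentary knockout mean, 1 point per library, with group mean and SD (veh., vehicle). The interferon-stimulated, MHC class II and macrophage marker lists stand higher in trained than sedentary knockout hearts on average, and heat shock chaperones lower. Trained vehicle hearts stand highest on average in ribosomal proteins, complex I, MHC class II and interferon-stimulated genes. Their mean is 0.61 in MHC class II and 0.24 in interferon-stimulated genes, against 0.35 and 0.21 in trained knockout hearts.

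Cytosolic chaperones of the heat shock response went the other way. Of 21 tested, 19 had a negative fold change, 10 an unadjusted p under 0.05 (5.8% of all genes) and 0 were called. The median was -0.113 in knockout and 0.018 in vehicle hearts. Hsph1, a nucleotide exchange factor for Hsp70, was 43, 40.6, 46.3, 41 and 30.2 ppm in sedentary and 26.8, 28.4, 28, 32.2 and 30.1 in trained knockout hearts. Sedentary replicate 5 lay among the trained libraries. The log2 fold change was -0.44 (SE 0.09, limma adjusted p 0.0582), and it was called without sedentary replicate 5 (-0.54) or replicate 4 (-0.43). Hsp90aa1, the inducible Hsp90, was 79.3 to 109 in sedentary and 63 to 80.2 in trained hearts (-0.34, SE 0.08, adjusted p 0.109).
Dnaja1, a J-domain partner of Hsp70, was 44.8, 38.2, 55.3, 44.5 and 36.7 in sedentary and 27.7, 36.1, 30.8, 34.2 and 35.6 in trained knockout hearts, without overlap (-0.40, SE 0.11, adjusted p 0.161). In vehicle hearts the log2 fold changes were -0.022 (SE 0.09) for Hsph1, -0.005 (SE 0.08) for Hsp90aa1 and -0.11 (SE 0.11) for Dnaja1. The differences of -0.42 (SE 0.13), -0.34 (SE 0.12) and -0.29 (SE 0.15) had unadjusted p values of 0.00278, 0.00789 and 0.0717 and adjusted p values of 0.528, 0.543 and 0.644. The list mean per library was 0.06, -0.05, 0.12, 0.04 and -0.18 in sedentary and -0.21, -0.25, -0.20, -0.15 and -0.04 in trained knockout hearts, so sedentary replicate 5 and trained replicate 5 lay out of their groups. The median was -0.122 without trained replicate 5 and -0.126 after the trend with transcript length was removed. In the stress response of the endoplasmic reticulum 17 of 22 genes were negative and 3 had an unadjusted p under 0.05, among them Hyou1 (-0.20, SE 0.07) and the secreted factor Manf (-0.20, SE 0.07).

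Ribosomal protein genes, the longest list, had the most members at an unadjusted p under 0.05 of the lists examined. Of 78 tested, 75 had a positive fold change and 46 such a p, against 6.01% of all genes, with 0 called. In 7 the trained libraries all lay above the sedentary ones, against 1.03% of all genes. The median log2 fold change was 0.159 in knockout and 0.246 in vehicle hearts, where 50 were called higher, against 4.72% of all genes. Rpl41 was 53.2, 53, 53.9, 77.4 and 56.2 ppm in sedentary and 77.6, 79.1, 76.8, 67.3 and 82.3 in trained knockout hearts (0.39, SE 0.09, limma adjusted p 0.109). Sedentary replicate 4 lay with the trained libraries. It did so in Rps21 (7.81 to 13.3 against 12.1 to 15.3, log2 0.46, SE 0.11, adjusted p 0.119) and in Rps16 (20.5 to 29.7 against 26 to 32.7, log2 0.36, SE 0.09, adjusted p 0.154) as well. Without sedentary replicate 4, 9 members were called higher. Without trained replicate 5, 30 had an unadjusted p under 0.05 and a positive fold change, with a median of 0.132. The list mean was 0.13 in sedentary replicate 4, -0.07 to 0.04 in the other sedentary and 0.11 to 0.29 in the trained knockout hearts. Ribosomal protein genes have many processed copies in the genome that can share reads.

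Nuclear genes of the respiratory chain were mostly on the positive side. Of 37 complex I genes, 31 were positive and 15 had an unadjusted p under 0.05 (median 0.099, against 0.210 in vehicle hearts with 24 called). Of 40 genes of complexes II to V, 33 were positive and 13 had an unadjusted p under 0.05 (median 0.071, against 0.182 with 20 called). Over all genes, 6.01% were higher at an unadjusted p under 0.05 in knockout hearts and 4.72% were called higher in vehicle hearts. Atp5k, a small subunit of ATP synthase, was 90.2, 89.5, 77.1, 130 and 80.7 ppm in sedentary and 140, 119, 110, 115 and 127 in trained knockout hearts (0.40, SE 0.11, limma adjusted p 0.155). Uqcrq and Uqcr10 of complex III were at 0.18 (SE 0.05) and 0.22 (SE 0.07), with adjusted p values of 0.184. Ndufa2 was at 0.21 (SE 0.06) and Ndufb2, another accessory subunit of complex I, at 0.16 (SE 0.05). Without sedentary replicate 4, 2 genes of complex I and 8 of complexes II to V were called higher. Without trained replicate 5, 9 genes of complex I and 12 of complexes II to V had an unadjusted p under 0.05. The medians were then 0.086 and 0.065. The 13 mitochondrially encoded transcripts had a median of -0.026 and 1 member at an unadjusted p under 0.05. That was mt-Atp8 (0.36, SE 0.17), and in mt-Atp8 sedentary replicate 4 stood at 492 against 228 to 271 in the other sedentary hearts.

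Long transcripts were lower and short ones higher in trained hearts, and this moved with the ribosomal and respiratory lists. The median length, as the longest annotated transcript (GENCODE vM21), was 1820 nucleotides for genes higher at an unadjusted p under 0.05 and 5102 for those lower, against 3338 for all 13168 genes with a length. The median log2 fold change went from 0.085 in the shortest of 10 equal groups of genes to -0.065 in the longest, and in vehicle hearts from 0.158 to -0.128. Across genes, which are not independent replicates, Spearman's rho between length and fold change was -0.352 in knockout and -0.49 in vehicle hearts.
The mean log2 level of long genes (at least 4811 nucleotides) minus that of short genes (at most 2087), after centring each gene, was 0.096, 0.1, 0.11, -0.014 and 0.12 in sedentary and 0.0021, -0.022, 0.0054, 0.022 and -0.14 in trained knockout hearts. Sedentary replicate 4 lay among the trained libraries and trained replicate 5 below the rest. With the length trend removed from the log2 levels of each library, limma called 0 genes, with 612 higher and 577 lower at an unadjusted p under 0.05 and adjusted p values of 0.0618 for Ciart and Rps27rt and 0.137 for Cyba. The log2 fold change was then 0.52 for Ciart, close to that without the correction, 0.29 for Cyba and 0.25 for Rps27rt. The medians were then 0.105 for ribosomal proteins, 0.014 for complex I and 0.005 for complexes II to V, with 26, 3 and 8 members higher at an unadjusted p under 0.05, and 0.369 for MHC class II and 0.194 for complement. What sets the length trend was not tested.

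**Figure D4:**
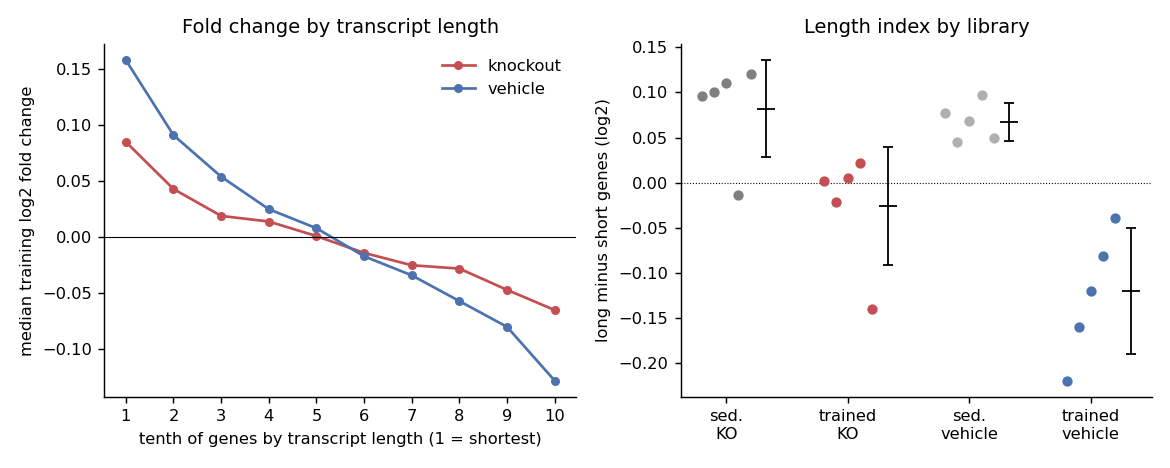
Left, median training log2 fold change for 10 equal groups of genes ordered by transcript length, in knockout and vehicle hearts. Right, the length index of each library (mean log2 level of genes of at least 4811 minus genes of at most 2087 nucleotides, after centring each gene) with group mean and SD. Fold change goes from 0.085 in the shortest to -0.065 in the longest group in knockout hearts, and sedentary knockout replicate 4, at -0.014, lies with the trained libraries.

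Genes of calcium handling and ion channels were mostly on the negative side. Over all genes, 6842 of 13455 were negative and 5.8% were lower at an unadjusted p under 0.05. Of 16 calcium handling genes 15 were negative and 3 had an unadjusted p under 0.05. Ryr2, the calcium release channel of the sarcoplasmic reticulum, was 1224, 1175, 1169, 1146 and 1195 ppm in sedentary and 1131, 1035, 1019, 1099 and 886 in trained knockout hearts, without overlap (log2 -0.20, SE 0.06, limma adjusted p 0.221). Atp2a2, the calcium pump SERCA2, was 12031 to 12661 in sedentary and 10486 to 11929 in trained hearts, also without overlap (-0.16, SE 0.06, adjusted p 0.308). Of 24 ion channel genes 18 were negative and 4 had an unadjusted p under 0.05, among them Kcnj2, an inward rectifier potassium channel (-0.22, SE 0.08, adjusted p 0.287). In the sarcomere the giant spring protein Ttn was at -0.19 (SE 0.06, adjusted p 0.233) and the small Z-disc cap Tcap at 0.20 (SE 0.07, adjusted p 0.237), and 15 of 26 members were positive (median 0.020). These lists moved with transcript length too, with median lengths of 4362 nucleotides for calcium handling and 4453 for ion channels. With the length trend removed the log2 fold changes were -0.10 for Ryr2, -0.12 for Atp2a2, -0.18 for Kcnj2, -0.045 for Ttn and 0.12 for Tcap.

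Other lists known from the trained heart follow. Over all genes, 6.01% were higher and 5.8% lower at an unadjusted p under 0.05. Of 22 genes of mitochondrial biogenesis and dynamics 18 were negative and 4 had an unadjusted p under 0.05, among them the fission gene Dnm1l (106 to 122 ppm in sedentary, 92.6 to 105 in trained knockout hearts, log2 -0.14, SE 0.04, limma adjusted p 0.201) and the fusion gene Mfn1 (-0.10, SE 0.04). Of 30 genes of fatty acid oxidation 1 and of 18 genes of the tricarboxylic acid cycle 0 had an unadjusted p under 0.05, and the medians were 0.001 and -0.031. In glucose metabolism 1 of 23 did: the lactate transporter Slc16a1 was 214 to 243 in sedentary and 180 to 199 in trained knockout hearts (-0.20, SE 0.06, adjusted p 0.201). Among 24 angiogenic genes 3 had an unadjusted p under 0.05, all with negative fold changes, with Vegfa at -0.19 (SE 0.06, adjusted p 0.197), a gene called lower in vehicle hearts (-0.25, SE 0.06, adjusted p 0.0104). Antioxidant enzymes gave 4 of 25 at an unadjusted p under 0.05, each with a positive fold change. Nqo1, a quinone reductase, was 46.8 to 54.3 in sedentary and 56.8 to 64.5 in trained hearts without overlap (0.23, SE 0.06, adjusted p 0.103).
The fetal and hypertrophy list had 1 of 15 at that level, Xirp2, an actin-binding protein of the intercalated disc (-0.26, SE 0.09, adjusted p 0.254). Growth factor signalling had 3 of 20 and extracellular matrix 3 of 37, with medians of -0.051 and 0.012. For Erbb4, the neuregulin receptor, the log2 fold change was -0.18 (SE 0.09, adjusted p 0.414) in knockout and -0.51 (SE 0.09, adjusted p 0.00189) in vehicle hearts, and the difference of 0.33 (SE 0.12) did not pass (adjusted p 0.581).

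Lists of acute and systemic signals are given beside 11.8% of all genes at an unadjusted p under 0.05. At that level were 1 of 19 immediate early genes (Ier2, 0.20, SE 0.08) and 2 of 13 of the glucocorticoid response. So were 2 of 15 secreted factors linked to exercise and 1 of 14 proliferation genes (the replication licensing factor Mcm7, 0.26, SE 0.10). In the glucocorticoid list Zbtb16 was 98.1, 104, 95, 89.6 and 119 ppm in sedentary and 90.5, 103, 46.5, 77.2 and 72.8 in trained knockout hearts, with replicate 3 the lowest (log2 -0.41, SE 0.15, limma adjusted p 0.267), and the other member was Per1. Fndc5, the precursor of irisin, had a log2 fold change of -0.083 (SE 0.04, adjusted p 0.42) in knockout and 0.13 (SE 0.04, adjusted p 0.0377) in vehicle hearts. Its difference of -0.22 (SE 0.06) had an unadjusted p of 0.00073 and an adjusted p of 0.524. Of 26 genes of protein breakdown 5 were at that level, among them the muscle ubiquitin ligase Trim63 (0.17, SE 0.06), and 3 of 6 selenium and cold-inducible genes, among them the RNA chaperone Rbm3 (0.20, SE 0.08).

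Among the 10 lowest fold changes without overlap, the collagen prolyl hydroxylase subunit P4ha1 had the smallest p, with 33.7, 35.3, 38.8, 30.9 and 29.5 ppm in sedentary and 25.5, 22.5, 27.2, 25.3 and 25.7 in trained knockout hearts (log2 -0.40, SE 0.09, limma adjusted p 0.0735). In vehicle hearts it was at -0.26 (SE 0.09, adjusted p 0.0623). Glcci1, a glucocorticoid-induced transcript, had the lowest value, -0.92 (SE 0.24, adjusted p 0.155), at 3.5 to 5.95 in sedentary and 0.828 to 3.01 in trained hearts. The myo-inositol transporter Slc5a3 (-0.53, SE 0.15), the somatostatin receptor Sstr3 (-0.51, SE 0.15) and the Rac exchange factor Tiam2 (-0.42, SE 0.12) followed, with adjusted p values of 0.181, 0.181 and 0.169. On the positive side, Zfas1, a noncoding host RNA of small nucleolar RNAs, was 2.6 to 4 in sedentary and 4.02 to 5.32 in trained knockout hearts (0.51, SE 0.11, adjusted p 0.0735).

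Whether knockout and vehicle hearts responded differently was tested by the difference of their training effects, in which limma called 0 of 13455 genes (0%), with 1085 at an unadjusted p under 0.05. The 5 smallest p values belonged to genes whose vehicle effect was called and whose knockout effect lay between -0.10 and 0.031. Pgk1, a glycolytic kinase, was 92.5, 86.7, 89.5, 94.8 and 93.4 ppm in sedentary and 83.7, 88.2, 92.6, 88.5 and 79.4 in trained knockout hearts (-0.08, SE 0.05), against 89.1 to 94.6 and 98.3 to 114 in vehicle hearts (0.21, SE 0.05). Gapdh, the next enzyme upstream, was at 0.031 (SE 0.05) in knockout and 0.30 (SE 0.05) in vehicle hearts. Mrps17 of the mitochondrial ribosome, Cox19 of cytochrome oxidase assembly and Rer1, a sorting receptor of the Golgi, had differences of -0.30 (SE 0.07), -0.36 (SE 0.08) and -0.24 (SE 0.06). Each of the 5 had an adjusted p of 0.524, so fewer calls in knockout than in vehicle hearts do not show a different response.

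**Figure D5:**
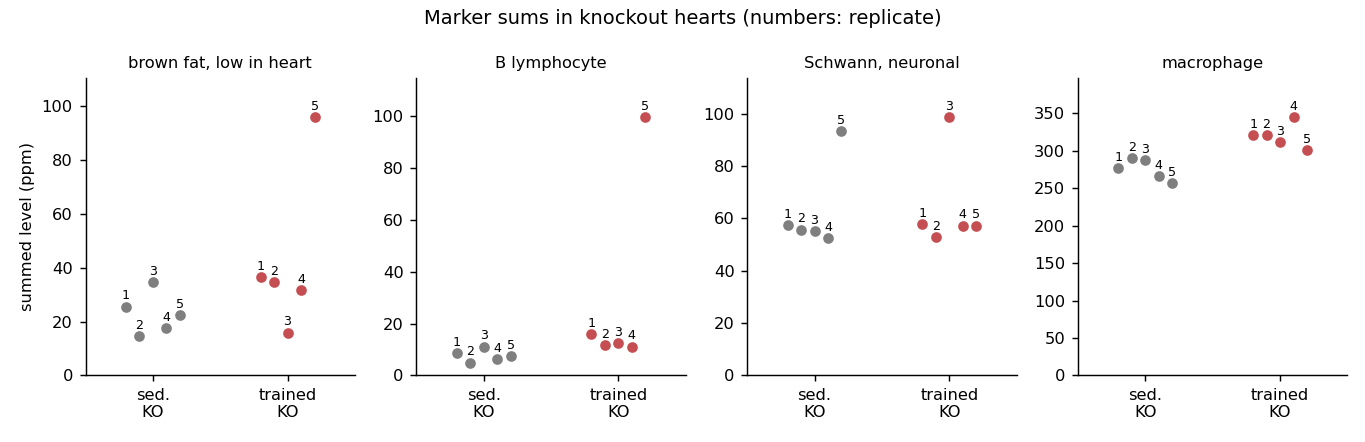
Summed levels (ppm, linear axis from 0) of 4 marker lists in the 10 knockout hearts, with the replicate number above each point. Trained knockout replicate 5 stands out in brown fat and B lymphocyte markers, sedentary replicate 5 and trained replicate 3 in Schwann cell and neuronal markers, and the macrophage sums of the 2 groups do not overlap.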

How the data were processed

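RNA was extracted with Trizol and RNeasy and made into Illumina libraries, per the labels. Per the submitters' processing notes, the tools were Partek and STAR 2.7.8a, and the builds named are GRCm39 and mm10, with no role given. The deposited heart table holds a scaled signal: the labels say CPM, but the columns do not sum to 1000000, and the values appear to be estimated reads divided by a factor per library. For 66.4% to 75.3% of the values from 0.05 to 100, the signal was a whole multiple of a step specific to the library, within 0.02 reads, and depth was estimated from that step. Each group mean rests on 5 libraries, while the spread per gene was estimated in the main fit from all 20 hearts in 4 groups. The vehicle hearts therefore also enter the SE and p-values of the knockout comparison.

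Rows were summed per gene symbol (21358 symbols, 22 extra rows), and 12 rows without a gene name (at most 0.00794% of a library) were left out. Levels in ppm, the signal after division by a single factor, were tested as log2(value + 1) with limma 3.58.1 (R 4.3.3) with a trend, for 13455 genes with a mean of at least 1 ppm over the 20 hearts, in 4 groups. Adjustment was Benjamini-Hochberg over all genes tested. The test was checked on simulated data. Other tissues were not used here.

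Named genes were those called, the 10 highest and 10 lowest fold changes without overlap at a mean of at least 2 ppm, the clock lists, up to 3 genes per other list by p, the 5 smallest p of the difference, Arntl and Rps27; predicted genes, clone names, pseudogenes and immunoglobulin segments were left out of the fold change and difference parts. Macrophage and other markers, Adgre1 and Cd163 among them, were named after their values were seen. The comparison, the 32 pathway lists and the 19 marker lists were chosen with earlier results of these data known. Alternatives were another pseudocount, filters, scaling, a replicate block, 2 groups, array weights, a length correction (lowess, span 0.3), marker covariates and leaving out libraries. The macrophage covariate and the threshold of 0.1 were added after seeing the data. Some genes that the rule names are not reported here. Promoters were read from RefSeq with Biopython 1.88.

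The numbers in the labels did not pair the samples.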

Additional observations from a re-analysis of the deposited data

Results flagged for a closer look

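In 26 of 302 groups of 5 knockout libraries, the highest or lowest library lay so far from the rest that its gap was above 0.71 of the group's range. Chance flags about 1 in 20 groups of unselected values. That rate does not hold for this set, since some of its genes were named after their values were seen and some sums share genes with it. Values are levels or marker sums in ppm, and 8 of the 26 belong to trained knockout replicate 5. Among these, Scgb1a1, Ucp1 and Ighm each also count in a flagged marker sum.

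In trained knockout replicate 5 these were Ifi27l2a at 16.2, Mfn1 at 261, Scgb1a1 at 24.1, the brown fat uncoupling protein Ucp1 at 48.8 and the immunoglobulin gene Ighm at 63, with sums of 96 for brown fat markers low in heart, 99.5 for B lymphocyte markers and 28.6 for lung epithelial markers. In sedentary replicate 4 they were Rpl41 at 77.4, Atp5k at 130, mt-Atp8 at 492 and the stress sensor Atf6 at 109. In sedentary replicate 3 they were Slc16a1 at 243, the laminin chain Lama2 at 73.1 and Myh6 at 18384. In trained replicate 3 they were Notch1 at 34.1, Manf at 19.3, the immediate early receptor Nr4a1 at 19.1 and Schwann cell and neuronal markers at 98.6.

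Sedentary replicate 1 stood apart in Fignl2 (1.17) and Rac2 (2.13), and sedentary replicate 2 in Dbp (91.4). Sedentary replicate 5 had low endothelial markers (878) and high Schwann cell and neuronal markers (93.4). Trained replicate 2 stood apart in the cold-inducible gene Cirbp (51.4) and in Gapdh (271).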

How the results depend on the processing

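In knockout hearts 3 genes were called. The count was 13 (7 higher, 6 lower) with a mean of at least 5 ppm, 32 with array weights, 14 with the atrial and 7 with the erythroid covariate, 36 at an adjusted p under 0.1, and 0 with the length trend removed, with the brown fat covariate or without trained knockout and trained vehicle replicate 5 together. With only the 2 groups compared the count was 2, and Cyba missed the threshold with a limma adjusted p of 0.0596. Leaving out 1 library gave 0 to 92. With the macrophage covariate the count was 3, all lower and none of the 3 reported genes. Ciart and Rps27rt were called in 9 of 13 other settings each and Cyba in 7. Lost calls were not always smaller: with the brown fat covariate the log2 fold changes were 0.55 for Ciart, 0.37 for Rps27rt and 0.34 for Cyba, and with replicate 5 of both trained groups left out 0.53, 0.36 and 0.35, whereas Rps27rt was at 0.25 with the length trend removed. In vehicle hearts the 1113 calls became 740 with only the 2 groups compared, 223 with the length trend removed, 565 with the atrial and 96 with the erythroid covariate and 1938 at an adjusted p under 0.1, and leaving out 1 library gave 419 to 1425. For the difference the count was 0 in each setting other than the macrophage covariate, with 6, and leaving out 1 library gave 0 to 0. The cause of these shifts was not tested.

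The replicate numbers do not pair the samples: same-numbered knockout libraries had correlations of deviations of -0.119 to 0.0854, and 0 of 5 correlated best with their own number. With the replicate block 6 genes were called in knockout hearts (5 higher, 1 lower) and 1180 in vehicle hearts, and Cyba had a limma adjusted p of 0.0506.

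Over 120 named genes and 23 settings, 2671 fold changes had the same direction and side of the threshold, 25 became called, 34 lost a call and 11 changed sign. Sign changed for Npas2 (0.07), Per3 (-0.02), Nr1d2 (-0.04), Tef (0.01) and Mrps17 (0.03) with the macrophage covariate, for Rora (0.02) with the length trend removed and for Hlf (-0.01) with the brown fat covariate. Leaving out 1 library gave -0.01 to 0.05 for Per3 and -0.02 to 0.05 for Hlf. The planned count test was not run, since whole reads could be recovered for 75.3% of values at most. Low genes such as Arntl and Npas2 rest on few reads.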
